A study of Arabidopsis thaliana with 18 samples.

Results

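The introns described here were partly retained in leaves of the Arabidopsis thaliana accession Col-0: of the reads that informed on each, at least 30% and under 90% came from transcripts that kept it. They were taken from 1801 intron retention events listed in the files of all 18 libraries, which were themselves among 5403 splicing events of all kinds common to those files. The rule required 20 or more reads over the 2 Col-0 libraries, which all 1801 events had, and it left 623 introns in 488 genes. Of the others, 468 were mostly spliced in Col-0 (under 30% retained) and 710 were rarely removed (90% or more retained). The introns were thus selected on the Col-0 reads themselves. The study sequenced polyadenylated RNA of seedlings aged 14 days, taking their first leaf. Its 9 groups were 5 inbred accessions (Ler-1, Kro-0, C24, Bur-0 and Col-0) and 4 F1 hybrids (Col-0 x Bur-0, Col-0 x Kro-0, Col-0 x Ler-1, Col-0 x C24), each with 2 biological replicates. All groups were untreated and grown on Murashige and Skoog plates with 1% sucrose, in 16 h of light of 100 µmol per square metre and second at 22 °C and 8 h of dark at 18 °C. Every hybrid shares Col-0 as a parent, and the labels do not say which parent was the mother. The study asked how splicing differs between accessions and how much of that difference lies in the genes' own sequence.

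Intron retention is the most common form of alternative splicing in plants. The spliceosome defines an intron mainly by its 5′ splice site, usually GT, its 3′ splice site, usually AG, a branch point and its richness in U and A. A transcript that keeps an intron often meets a stop codon inside it and may be degraded in the cytoplasm by nonsense-mediated decay or stay in the nucleus. Genes that encode splicing factors and clock components are known to carry regulated retained introns.

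Sequences of 12 of the introns are shown so that a reader can see their splice sites and length. The 12 printed here, from the RefSeq reference genome TAIR10.1, all lie within coding spans and are those whose values carry the results below, or, for VCS, an intron whose retention hardly varied. Each runs 5′ to 3′ on the strand of its gene, with the first and last 2 bases, the splice sites, in capitals.
COAB, chr1:4200107-4200190, plus strand, 84 nt: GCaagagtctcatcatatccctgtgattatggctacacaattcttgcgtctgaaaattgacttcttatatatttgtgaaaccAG
EMB2654, chr2:17403809-17403904, minus strand, 96 nt: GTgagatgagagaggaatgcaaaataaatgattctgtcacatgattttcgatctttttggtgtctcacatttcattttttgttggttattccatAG
EDM2, chr5:22451336-22451402, minus strand, 67 nt: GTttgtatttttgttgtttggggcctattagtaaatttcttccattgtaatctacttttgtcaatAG
AT1G27520, chr1:9560334-9560476, plus strand, 143 nt: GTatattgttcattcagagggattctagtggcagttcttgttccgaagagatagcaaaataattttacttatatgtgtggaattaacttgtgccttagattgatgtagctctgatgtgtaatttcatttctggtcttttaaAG
AT4G16670, chr4:9386571-9386692, plus strand, 122 nt: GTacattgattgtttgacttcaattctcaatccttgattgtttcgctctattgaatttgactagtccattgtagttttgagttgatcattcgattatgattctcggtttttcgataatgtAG
AT2G14255, chr2:6037423-6037583, plus strand, 161 nt: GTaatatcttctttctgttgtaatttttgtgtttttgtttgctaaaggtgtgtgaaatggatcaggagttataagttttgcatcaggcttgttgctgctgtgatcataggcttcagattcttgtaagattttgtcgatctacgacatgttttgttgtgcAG
PnsL1, chr2:16476916-16477015, plus strand, 100 nt: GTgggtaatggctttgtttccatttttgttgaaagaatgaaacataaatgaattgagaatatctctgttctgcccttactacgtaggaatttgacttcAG
APE2, chr5:18699430-18699561, plus strand, 132 nt: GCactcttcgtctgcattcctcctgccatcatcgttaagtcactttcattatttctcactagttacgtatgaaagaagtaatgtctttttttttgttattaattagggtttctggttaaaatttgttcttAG
AT3G26085, chr3:9531043-9531129, plus strand, 87 nt: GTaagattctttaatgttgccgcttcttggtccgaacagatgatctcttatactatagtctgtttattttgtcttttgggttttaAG
SPL2, chr5:17361129-17361308, minus strand, 180 nt: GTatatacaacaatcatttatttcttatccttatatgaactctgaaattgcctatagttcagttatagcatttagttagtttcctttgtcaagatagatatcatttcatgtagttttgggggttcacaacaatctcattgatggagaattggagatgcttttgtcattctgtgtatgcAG
PRR7, chr5:640756-640888, minus strand, 133 nt: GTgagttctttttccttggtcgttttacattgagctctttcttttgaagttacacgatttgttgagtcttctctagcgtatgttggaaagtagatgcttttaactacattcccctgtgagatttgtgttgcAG
VCS, chr3:4304101-4304205, plus strand, 105 nt: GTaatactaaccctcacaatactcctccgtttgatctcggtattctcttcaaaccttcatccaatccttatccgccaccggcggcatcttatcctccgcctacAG
COAB and APE2 begin with GC instead of GT, which 18 of the 623 introns do. Those of VCS and AT3G26085, if kept, leave the reading frame open to the normal stop codon. The PnsL1 stretch matches no annotated intron.

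The label "intron" was checked against the reference annotation. Of the 623 stretches, 481 match an annotated intron of some transcript exactly, 16 of them only in a transcript of another gene than the one named, and 142 match none. The unannotated stretches were retained more in Col-0, with a median of 79.2% against 58.1% for the annotated ones. Splice sites were GT and AG in 579, GC and AG in 18, and CT and AC, the reverse complement of GT and AG, in 24. Another annotated gene overlaps 55 of the stretches, and the sources used here do not say whether reads were counted by strand, so reads of the named gene and of its partner cannot be told apart there. Stretches also overlap each other: 134 of them share bases with another, in 60 clusters, so the 623 cover 549 separate places and are not independent. At most 4 lie in 1 gene, as in U2AF65B, AT5G01930 and 5 other genes.

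Intermediate introns lay between the other classes in several features that the rule did not use. Exactly annotated introns made up 98.9% of the mostly spliced class, 77.2% of the intermediate and 28.5% of the rarely removed. The share lying wholly inside an annotated exon of the named gene, in any transcript, ran the other way, at 42.7%, 57.9% and 74.6%. Median GC content was 34.1%, 35.1% and 37.9%, and an acceptor reading CAG was found in 64.5%, 59.7% and 45.6%. The 6 letters GTAAGT at the donor, searched on the gene's strand, were found in 6.62%, 5.94% and 4.51%. GT and AG ends on that strand were found in 94.0%, 92.9% and 82.4%, a difference that both motif shares also carry. Among exactly annotated introns alone GTAAGT was found in 6.48%, 5.82% and 4.95%. The mean number of the 6 letters matched there was 3.99, 3.93 and 3.94, without that order. By position, 17.0% of the intermediate introns lay in 5′ UTRs and 9.15% in 3′ UTRs, against 4.27% and 2.99% of the mostly spliced and 14.5% and 8.45% of the rarely removed. Among exactly annotated introns alone the order of the last 2 classes was the other way round, with 21.0% and 11.6% for intermediate and 35.1% and 14.9% for rarely removed introns. Of the 300 intermediate introns that annotated coding sequence flanks directly, 248 (82.7%) bring a stop codon in frame within the intron, against 84.0% of the mostly spliced and 48.1% of the rarely removed. Lengths divisible by 3 made up 32.4%, against 32.9% and 38.6%. These are descriptions of classes drawn from the same Col-0 reads, without a test.

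The reads of Col-0 chose the introns, so every comparison with Col-0 below is a description. Just inside the lower bound stood introns of CSD1, a copper and zinc superoxide dismutase, and AT4G30630, both at 30% over the Col-0 libraries together. PRP40A and AT2G47830 fell just outside, both at 29.8%. At the upper bound, introns of AT1G13920 and ALDH11A3 stood just inside at 89.9%, and those of GLT1, at 90%, and AT5G66675, at 90.1%, just outside. In each Col-0 library alone, 511 of the 623 met both bounds.

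Each library held between 3186952 and 6134488 reads in its listed events. The median number of reads per intron ranged from 38, in C24 replicate 2 and Kro-0 replicate 1, to 77 in Col-0 x Ler-1 replicate 2. The replicates of a group differed by a median of 5.06 percentage points per intron in Bur-0, the closest pair, and of 7.99 in Col-0 x Bur-0, the widest. Reads carry no molecular identifiers in the sources used here, so limits given for counts of 0 cover counting error only. In bulk leaves, a difference in retention within cells and a difference in the mix of cells cannot be told apart. The event tables hold no gene expression levels, so leaf identity was not checked against marker genes; 2 of 12 marker genes of guard cells, phloem, epidermis, meristem and root had any intron retention event, and none of these was an intermediate intron.

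Most of the introns that were intermediate in Col-0 were intermediate elsewhere too. Between 76.0% of them, in C24, and 86.2%, in Col-0 x Bur-0, stayed from 30% to under 90% retained in the other groups, counting introns with 20 or more reads there. The median intron was 63.3% ± 0.389 retained in Col-0 (here and in this paragraph SD of the 2 library medians, n = 2), 64.5% ± 0.532 for Ler-1, 60.3% ± 1.48 for Kro-0, 64.3% ± 0.249 for C24 and 66.6% ± 1.34 for Bur-0. Kro-0 was lowest and Bur-0 highest among the accessions, and their libraries did not overlap, with medians of 61.0% and 58.9% against 67.0% and 65.1%. Among hybrids the medians were 63.2% ± 2.997 for Col-0 x Ler-1, 63.2% ± 0.465 for Col-0 x Kro-0, 61.2% ± 0.605 for Col-0 x C24 and 64.98% ± 0.294 for Col-0 x Bur-0. Kro-0 retained less than Col-0 at 378 introns and more at 242, whereas Bur-0 retained less at 258 and more at 364. Between 5 (Kro-0) and 8 (Ler-1) of the introns stood under 5% in the other accessions, and 0 did in any hybrid. Every hybrid has a Col-0 parent and the rule required at least 30% in Col-0, so the selection made hybrids under 5% unlikely. The same count was not made over all intron retention events.

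**Figure D1:**
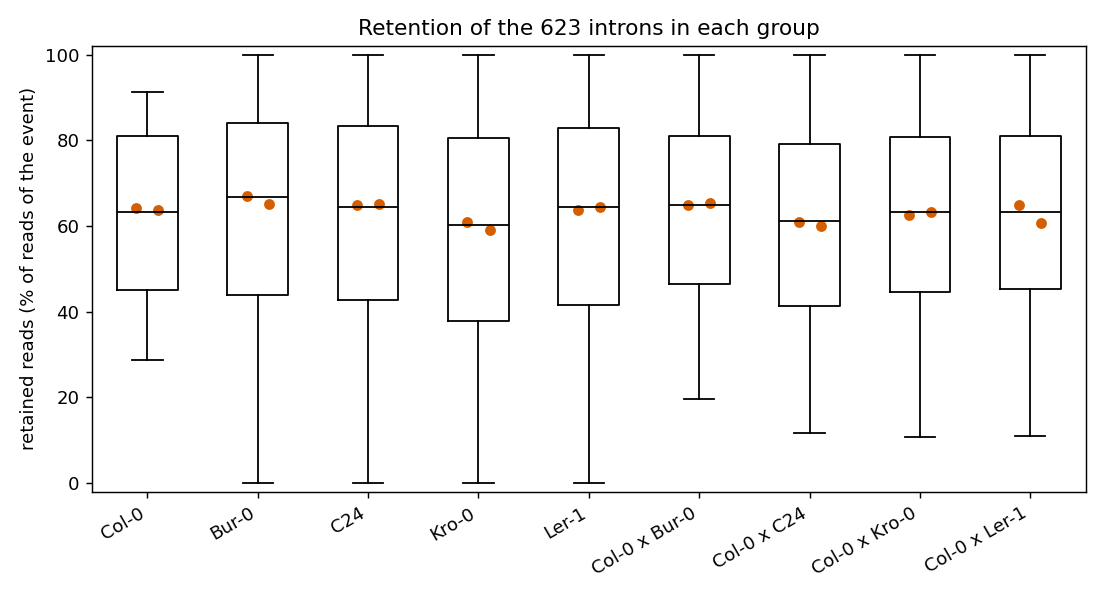
Percent of reads retaining each of the 623 introns (y axis) in the 9 groups (x axis). Boxes span the quartiles over introns of the mean of 2 libraries, with the median as a line and whiskers to the farthest value within 1.5 interquartile ranges, and orange points are the medians of the 2 libraries. The group medians lie between 60.3% (Kro-0) and 66.6% (Bur-0), and the accessions other than Col-0 reach 0%, where the hybrids' whiskers do not. The lower bound set in Col-0 limits this contrast, since every hybrid has a Col-0 parent.

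Length told little about retention within these introns, whose Col-0 retention the rule had bounded. Such bounds can flatten a link with length, and the link was not computed over all intron retention events. The introns were 21 to 2898 nt long, with a median of 106 nt, against 93 nt for the mostly spliced and 102 nt for the rarely removed stretches. Across introns, Spearman's rho between length and percent retained lay between 0.034 (Ler-1) and 0.111 (Col-0 x Bur-0) in the 9 groups, over 621 to 623 introns that share their libraries. The 99 introns under 80 nt had a median retention of 61.8% in Col-0, the 175 of 80 to under 100 nt 61.2%, the 246 of 100 to under 200 nt 67.7% and the 103 of 200 nt or more 63.5%. Introns of 100 to under 200 nt were above those of 80 to under 100 nt in all 9 groups, by the medians. Kro-0 stood lowest of all groups for introns under 80 nt, at 50.1%, with library medians of 53.6% and 50%, and for those of 80 to under 100 nt, at 56.7%. At 100 to under 200 nt Kro-0 reached 65.3%, above C24 (64.3%) and Col-0 x C24 (63.5%). Of the coding-flanked introns, 40 of 49 under 80 nt, 63 of 85 of 80 to under 100 nt, 101 of 122 of 100 to under 200 nt and 44 of 44 of 200 nt or more hold a stop codon in frame.

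**Figure D2:**
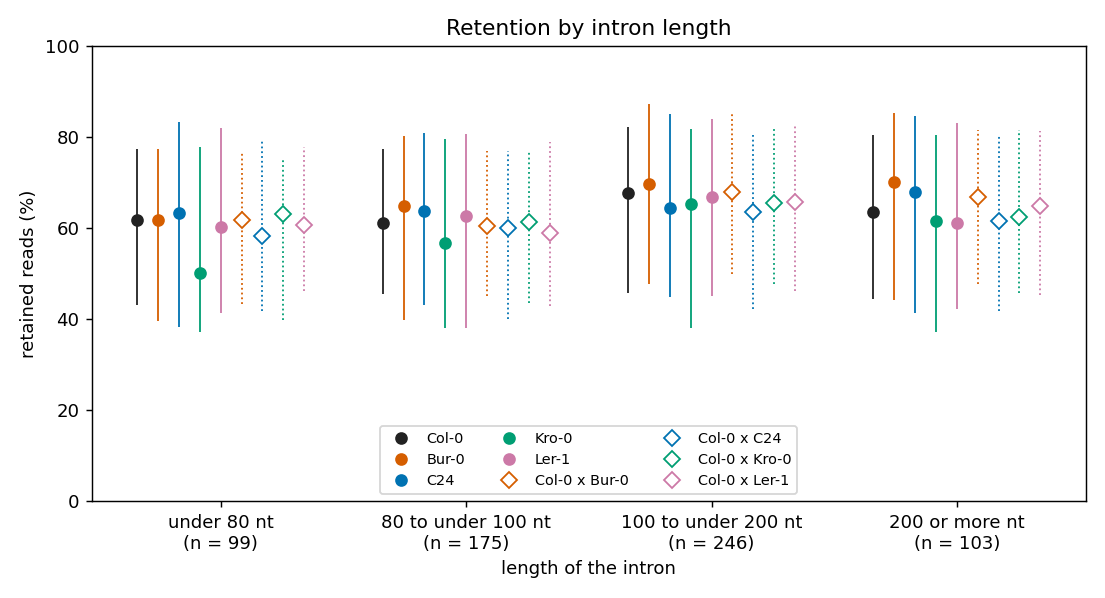
Percent retained (y axis) by intron length (x axis) in the 9 groups. Points are medians over introns of the mean of 2 libraries, lines span the quartiles, filled circles are accessions and open diamonds are hybrids in the colour of their other parent. Quartiles overlap throughout, and the lowest point is Kro-0 under 80 nt, at 50.1%.

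The shortest introns named by rank among annotated ones were those of AT4G16710 (52 nt), AT2G32850 (60 nt) and ADF5 (60 nt). The kinase gene AT2G32850 held its retention within 73.2% to 85.6% over all 18 libraries, and its intron leaves the reading frame open. ADF5, an actin-depolymerizing factor, kept its 5′ UTR intron in 81.8% and 73.9% of Col-0 reads, and Bur-0 had 0 spliced of 37 reads, which allows up to 8.11% spliced. C24 had 0 spliced of 75, which allows up to 4%. The difference among accessions did not pass the test described below (edgeR quasi-likelihood adjusted p = 0.114). At the other end, the 2898 nt stretch named for AT3G56410 has CT and AC ends and matches an intron of AT3G56408, a non-coding RNA gene on the opposite strand, so its reads may belong to either. AT1G10890, whose product resembles the human splicing-related protein ARGLU1, retained its 868 nt intron in 85.7% and 82.8% of Bur-0 reads, against 50% and 62.6% in Ler-1, 56.2% and 67.0% in Kro-0, and 67.9% and 68.0% in C24. Bur-0 lay above the other 3 accessions without overlap (edgeR quasi-likelihood adjusted p = 0.00783), a call lost without Bur-0 replicate 1 (edgeR adjusted p = 0.11). UMAMIT13, an amino acid transporter family member, stayed between 75.9% and 94.7% over 18 libraries for its 865 nt intron.

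To test differences without the reads that chose the introns, the 16 libraries other than Col-0 were fitted together with edgeR's quasi-likelihood test on spliced and retained reads, over all splicing events and with Benjamini-Hochberg adjustment. An event is called here at an adjusted p under 0.05, and it was tested where each compared library had at least 10 reads. Among Bur-0, C24, Kro-0 and Ler-1, 571 of the 623 introns could be tested and 88 (15.4%) were called, in 84 genes. The background was close: 13.2% of all 4943 events tested and 14.7% of the intron retention events tested were called. Both shares count the introns themselves. The gap between the highest and lowest accession had a median of 14.6 points over the introns tested, 8.63 over all intron retention events and 5.58 over all events. Intermediate introns have more room to move than introns near 0% or 100%, and this gap was not tested against the other classes. In the 88 called introns the median gap was 32.9 points, Bur-0 was the highest accession in 35 and Kro-0 the lowest in 30. The same values were not computed over all called events.

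By length, calls were made for 8 of 80 introns tested under 80 nt (10%), 33 of 162 of 80 to under 100 nt (20.4%), 35 of 233 of 100 to under 200 nt (15.0%) and 12 of 96 of 200 nt or more (12.5%). Over all intron retention events the same shares were 14.2%, 16.6%, 13.1% and 15.2%. Each event also carries an interval in the coordinates of the other accession, from an assembly not given in the sources used here. Where that interval's length differed among the 4 accessions, 27 of 87 introns were called (31.0%), and where it was equal, 61 of 484 (12.6%). The split was like that for all intron retention events, at 27.6% and 12.04%. In 3′ UTRs 13 of 53 introns were called (24.5%), in 5′ UTRs 15 of 97 (15.5%) and in coding spans 55 of 400 (13.8%). Over all intron retention events these shares were 19.4%, 18.7% and 12.9%.

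The 10 called introns with the widest gaps fell into 2 kinds: 1 accession alone at an extreme, or accessions spread along the scale. AtkdsA1 (AT1G79500) encodes an enzyme that makes the sugar Kdo for cell-wall pectin, and the intron is 274 nt long and lies in the 3′ UTR. Bur-0 had 0 retained of 167 reads, which allows up to 1.796%, while the libraries of C24 stood at 87.5% and 86.6%, of Kro-0 at 71.6% and 80.7%, of Ler-1 at 77.9% and 76% and of Col-0 at 76.7% and 83.8%. Col-0 x Bur-0 stood at 53.3% and 56.8%, and the other 3 hybrids between 72.6% and 87.0%. Bur-0 was thus apart from all other groups and its hybrid lay between the parents (edgeR quasi-likelihood adjusted p = 4.86e-08 among accessions).

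Ler-1 was the low accession at 3 of these introns. AT1G27520, a glycosyl hydrolase family 47 gene, was at 6.25% and 16.7% in Ler-1, on 34 reads, and between 77.4% and 92.8% in the libraries of Bur-0, C24 and Kro-0 (edgeR quasi-likelihood adjusted p = 0.0001). SOS4, a pyridoxal kinase needed for salt tolerance, retained its 92 nt 5′ UTR intron in 2.11% and 3.37% of Ler-1 reads, 67.0% and 76.9% of Bur-0 reads, 48.7% and 60.7% of C24 reads and 24% and 48.6% of Kro-0 reads (edgeR quasi-likelihood adjusted p = 2.19e-06). EDM2 encodes a chromatin-binding protein required for disease resistance and for the expression of genes with heterochromatic introns. Its 67 nt intron had 0 retained of 58 reads in Ler-1, which allows up to 5.17%, against 43.9% and 52.6% for Kro-0, 61.5% and 69.0% for C24 and 62.7% and 55.7% for Bur-0 (edgeR quasi-likelihood adjusted p = 0.000467). The Ler-1 interval of the EDM2 intron is 36 nt longer than the Col-0 one, whereas those of Bur-0, C24 and Kro-0 are equal to it. Col-0 x Ler-1 stood at 15.6% and 31.7%, below Col-0 at 45.2% and 32.1%.

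Among the accessions other than Col-0, Kro-0 stood alone at 2 introns, in opposite directions. EMB2654, a pentatricopeptide repeat protein of chloroplasts, had 0 spliced of 103 Kro-0 reads, which allows up to 2.91% spliced. The libraries of Bur-0, C24 and Ler-1 lay between 39.0% and 50.9%, and those of Col-0 x Kro-0 at 67.9% and 73.2% (edgeR quasi-likelihood adjusted p = 1.84e-06 among accessions). In AT3G07510, annotated as a maternal effect embryo arrest protein, Kro-0 retained the 87 nt 5′ UTR intron in 20.7% and 41.4% of reads. Bur-0, C24 and Ler-1 had 0 spliced of 53, 69 and 69 reads, which allows up to 5.66%, 4.35% and 4.35% spliced (edgeR quasi-likelihood adjusted p = 1.39e-05). In these 3 accessions the interval is 13 nt longer than in Col-0, and in Kro-0 it is equal. Col-0 itself stood at 50% and 46.2%, nearer to Kro-0. The gene AT3G01995 overlaps this intron, so its reads may belong to either gene.

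The remaining 4 of the 10 were graded or had a single low accession. NUFIP, whose product is annotated as a GATA zinc finger protein, stood at 14.8% and 0% in Bur-0 and between 68.4% and 85.7% in the libraries of the other 3 accessions (edgeR quasi-likelihood adjusted p = 0.000848). AT2G02570, an RNA-binding protein gene with a 134 nt 3′ UTR intron, ran from 30.4% and 32.4% in Kro-0 through 68.2% and 66.2% in Ler-1 up to 96.8% and 97.6% in C24, with Bur-0 at 95.2% and 95.5% (edgeR quasi-likelihood adjusted p = 3.36e-07). AT4G16670, an auxin canalization family gene, was low in Ler-1, at 24.2% and 19.4%, and C24, at 28.1% and 36.8%. It was higher in Kro-0, at 63.5% and 63.3%, and Bur-0, at 86.8% and 81.4% (edgeR quasi-likelihood adjusted p = 0.00011). The gene AT4G06410 overlaps this intron, so its reads may belong to either gene. GSTU10, a glutathione transferase, rested on few and uneven reads: C24 stood at 26.5% and 5.17%, Bur-0 at 91.7% and 90.9% on 23 reads (edgeR quasi-likelihood adjusted p = 0.00682). Without C24 replicate 2, or with limma on the percent, GSTU10 was no longer called.

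Interval lengths went with retention at some of these 10 introns and not at others. In 5 of them, AT1G27520, GSTU10, NUFIP, AT4G16670 and EMB2654, the interval is equal to the Col-0 one in all 4 accessions. In AtkdsA1 it is 9 nt longer in both Bur-0 and C24, which stood at opposite ends.

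**Figure D3:**
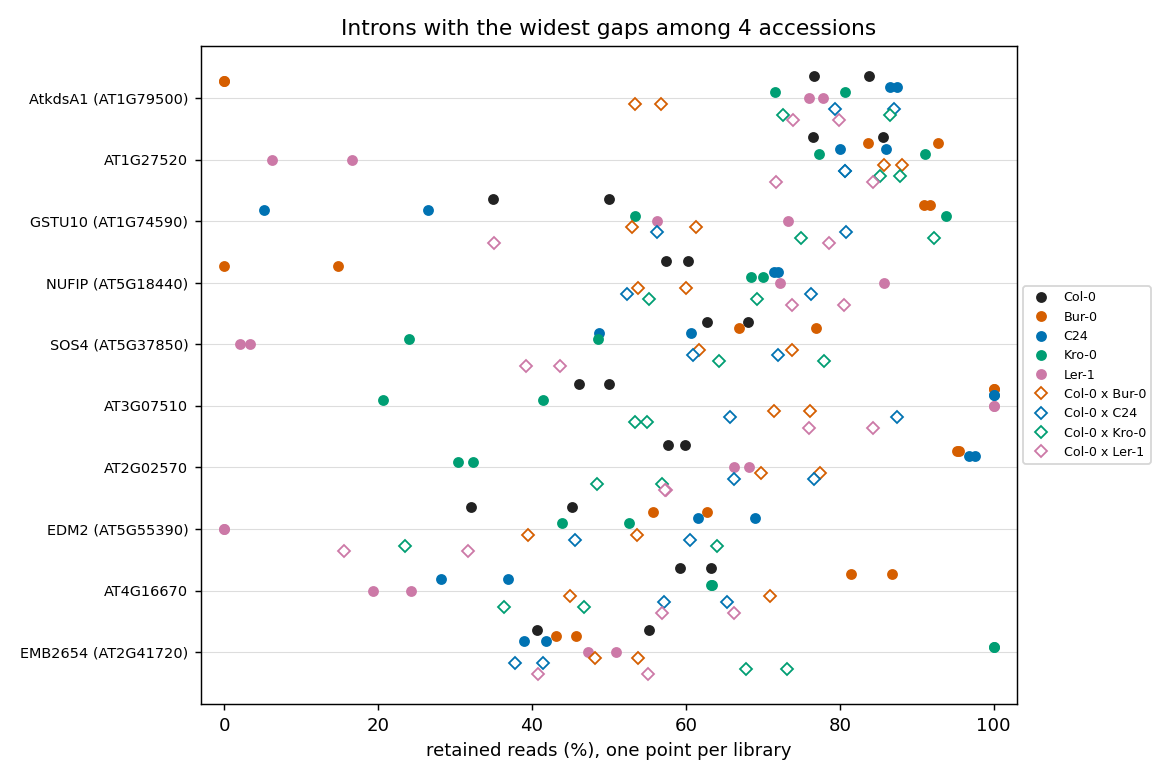
Percent retained (x axis) of the 10 introns with the widest gaps among Bur-0, C24, Kro-0 and Ler-1 (y axis), 1 point per library. Filled circles are accessions and open diamonds are hybrids in the colour of their other parent. Bur-0 sits at 0% in AtkdsA1, Ler-1 at 0% in EDM2 and Kro-0 at 100% in EMB2654, and the hybrid of that accession lies nearer to Col-0.

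Fewer introns were called among hybrids than among accessions. Of 597 introns tested among the 4 hybrids, 16 (2.68%) were called, beside a background of 3.47% of 5066 events and 2.61% of intron retention events. The median gap over the introns tested was 12.5 points among hybrids, and 13 of the 16, which are also 13 of the 88, were called among accessions too. This overlap was not computed over all called events. COAB encodes an enzyme of coenzyme A synthesis and its intron starts with GC. No read was retained of 133 for Bur-0, 114 for Kro-0 and 550 for Ler-1, which allows up to 2.26%, 2.63% and 0.545%, whereas COAB stood at 58.8% and 58.8% in C24 and 55.6% and 50% in Col-0. Its hybrids followed: Col-0 x C24 stood at 44.8% and 45.3%, Col-0 x Bur-0 at 32.1% and 27.6%, Col-0 x Kro-0 at 21.1% and 16.7% and Col-0 x Ler-1 at 14.2% and 7.73%. Col-0 x C24 lay above the other 3 hybrids without overlap (edgeR quasi-likelihood adjusted p = 0.00474 among hybrids). Without Col-0 x Ler-1 replicate 2 the adjusted p of COAB was 0.0507.

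In AT5G09880, a CC1-like splicing factor gene, an unannotated 409 nt stretch was retained in 36.3% and 43.8% of Bur-0 reads and 44.9% and 50.8% of Col-0 x Bur-0 reads. All other libraries lay between 77.5% and 96.2%, so Bur-0 and its hybrid formed the low end (edgeR quasi-likelihood adjusted p = 0.00099 among hybrids). NUDX13, a Nudix hydrolase, had a 64 nt 5′ UTR intron at 82.7% and 75.8% in Col-0 x C24 and at 23.8% and 33.3% in Col-0 x Kro-0, with 77.4% and 86.4% in C24 and 25% and 33.3% in Kro-0 (edgeR quasi-likelihood adjusted p = 0.02 among hybrids). The stretch named for AT4G38545 has CT and AC ends and is an annotated intron of the overlapping gene AT4G38540 on the other strand. It stood at 72.9% and 47.2% in Col-0 x Kro-0 and at 11.2% and 23.95% in Col-0 x C24 (edgeR quasi-likelihood adjusted p = 0.0199). NUDX13 and AT4G38545 lost the call when only hybrid libraries were fitted and without Col-0 x C24 replicate 1 or Col-0 x Kro-0 replicate 1, NUDX13 also without Col-0 x C24 replicate 2 and AT4G38545 also with limma.

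Each hybrid was then set against its other parent, which asks where a leaf with 1 Col-0 genome departs from an accession without any. Calls were few. In Col-0 x Bur-0 against Bur-0, 11 of 608 introns were called (1.81%), beside 1.07% of all events. In Col-0 x C24 against C24, 7 of 586 were called (1.19%), beside 0.635%. For Col-0 x Kro-0 against Kro-0 the count was 14 of 591 (2.37%), beside 1.29%. For Col-0 x Ler-1 against Ler-1 it was 19 of 608 (3.13%), beside 1.48%. Over intron retention events alone the shares called were 1.3%, 1.04%, 2.18% and 2.14%. These shares count the introns themselves, which made up 11 of 23, 7 of 18, 14 of 38 and 19 of 38 of the calls. Their nearness to the introns' own shares is thus partly built in. The hybrid retained more than its other parent in 7, 5, 9 and 13 of these calls, beside 0.663%, 0.416%, 0.813% and 0.953% of all events higher in the hybrid. It retained less in 4, 2, 5 and 6, beside 0.41%, 0.218%, 0.476% and 0.525% lower. The hybrid's mean lay between those of Col-0 and the other parent in 11 of 11, 6 of 7, 13 of 14 and 16 of 19, a description that uses the Col-0 reads. In all, 32 introns were called in any of the 4 comparisons and 12 in 2 or more. Neither these counts nor those of hybrids between their parents were made over all splicing events. The difference between hybrid and other parent itself differed between crosses in 13 of 562 introns tested (2.31%), beside 0.938% of all events and 1.18% of intron retention events.

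AT2G14255 alone was called in all 4. It encodes an ankyrin repeat protein with a DHHC domain, the signature of protein S-acyltransferases. Its 161 nt intron stood at 3.12% and 0% for Bur-0, 0% and 13.0% for C24, 0% and 0% for Kro-0 (0 of 93 reads, which allows up to 3.23%) and 0% and 3.33% for Ler-1, but at 89.1% and 79.2% in Col-0. The hybrids stood at 62.4% and 74.7%, 74.2% and 75%, 61.9% and 58.1%, and 67.6% and 60.3%, in the same order of crosses, and so all lay above every library of their other parents and below both Col-0 libraries. The edgeR quasi-likelihood adjusted p was 0.000165, 0.00261, 0.000109 and 0.000293 in that order. Without C24 replicate 1, the library at 0%, the C24 call was lost (edgeR adjusted p = 0.0965). The interval is 36 nt shorter in C24 and 1 nt longer in the other 3 accessions. The accessions other than Col-0 did not pass the test among themselves (edgeR quasi-likelihood adjusted p = 0.443).

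AT1G19485, a WD40 repeat gene, had the same shape, with 4.76% to 17.4% in the libraries of the 4 accessions and 41.7% to 71.4% in the hybrids. It was called against Bur-0, Kro-0 and Ler-1 (edgeR quasi-likelihood adjusted p = 0.00287, 0.00152 and 0.00127) and not against C24 (0.166). Each of these calls was lost without replicate 1 of that parent (edgeR adjusted p = 0.0758, 0.0588 and 0.0653). SPL2, a squamosa promoter-binding-like transcription factor, differed by accession: 12% and 4% for Bur-0, 7.14% and 9.09% for Kro-0 and 0% and 6.45% for Ler-1, but 66.7% and 55.6% in C24. Its interval is 7 nt shorter than in Col-0 in the 3 low accessions and equal in C24. The hybrids of the low accessions were higher, with 59.6% and 63.5% in Col-0 x Bur-0, 54.1% and 63.6% in Col-0 x Kro-0 and 48.6% and 62.8% in Col-0 x Ler-1. All of these were called (edgeR quasi-likelihood adjusted p = 0.00208, 0.0258 and 0.00196). The Bur-0 call was lost without Bur-0 replicate 2 (edgeR adjusted p = 0.0738), the Kro-0 call in each fit without a library of either group, and the Ler-1 call in none of the alternatives. AT3G26085, a CAAX protease family gene, stood at 2.50% and 8.47% in C24 and 4.94% and 5.56% in Ler-1, against 32.9% and 35.6% in Col-0 x C24 and 24% and 40.6% in Col-0 x Ler-1. Both were called (edgeR quasi-likelihood adjusted p = 0.0245 and 0.00244). The first was lost in any fit that left out a library of C24 or its hybrid, or that used only the compared libraries. The second was lost without either Ler-1 library or without Col-0 x Ler-1 replicate 2. The 52 nt 5′ UTR intron of AT4G16710, a glycosyltransferase gene, stood at 15.4% and 41.2% in C24 and 84% and 79.6% in its hybrid, just under the threshold (edgeR quasi-likelihood adjusted p = 0.05) and lost in 16 of 23 alternatives. Its interval is 26 nt longer in all 4 accessions than in Col-0.

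Other stretches were retained less in the hybrid than in the other parent, whose reads were nearly all unspliced. Those of PnsL1, AT1G52510 and CP5 match no annotated intron. PnsL1, a lumenal subunit of the chloroplast NDH complex, had 0 spliced of 326 reads in Ler-1, which allows up to 0.920%, and 100% and 98.7% retained in Bur-0, against 68.7% and 71.3% in C24 and 68.3% and 77.5% in Kro-0. Col-0 x Ler-1 stood at 87.4% and 82.9% and Col-0 x Bur-0 at 80.7% and 88.7% (edgeR quasi-likelihood adjusted p = 0.000293 and 0.00417), and with limma on the percent neither was called. The Bur-0 call was also lost without Bur-0 replicate 1 or Col-0 x Bur-0 replicate 1 (highest adjusted p over the alternatives 0.177, edgeR and limma). APE2, the triose phosphate translocator of the chloroplast envelope, stood at 99.0% and 97.5% in Bur-0 and 84.0% and 88% in Col-0 x Bur-0 (edgeR quasi-likelihood adjusted p = 0.0207), a call lost without any 1 of those 4 libraries. AT1G52510, an alpha/beta-hydrolase gene, had no spliced read in 139, 76, 159 and 154 reads of Bur-0, C24, Kro-0 and Ler-1, which allows up to 2.16%, 3.95%, 1.89% and 1.95%. Its hybrids stood between 84.2% and 90.7% and Col-0 at 86.4% and 80.9%. The hybrids of Kro-0 and Ler-1 were among its calls (edgeR quasi-likelihood adjusted p = 0.00347 and 0.00967). The first was lost without Kro-0 replicate 2 (edgeR adjusted p = 0.0688) and the second without either Ler-1 library (edgeR adjusted p up to 0.171). NUDX15 stood at 95.6% and 96.8% in Kro-0, 75.6% and 52.4% in Col-0 x Kro-0 and 58.2% and 50.4% in Col-0 (edgeR quasi-likelihood adjusted p = 0.00432), a call lost without Kro-0 replicate 2 or when only the compared libraries were fitted (edgeR adjusted p up to 0.124). Smaller shifts were called in CP5 (97.8% and 97.6% in C24, 89.1% and 91.4% in its hybrid) and AT5G41670 (93.6% and 96.3% in Ler-1, 81.3% and 84.8% in its hybrid). Both calls were lost in several alternatives (edgeR quasi-likelihood adjusted p = 0.0338 and 0.0352).

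**Figure D4:**
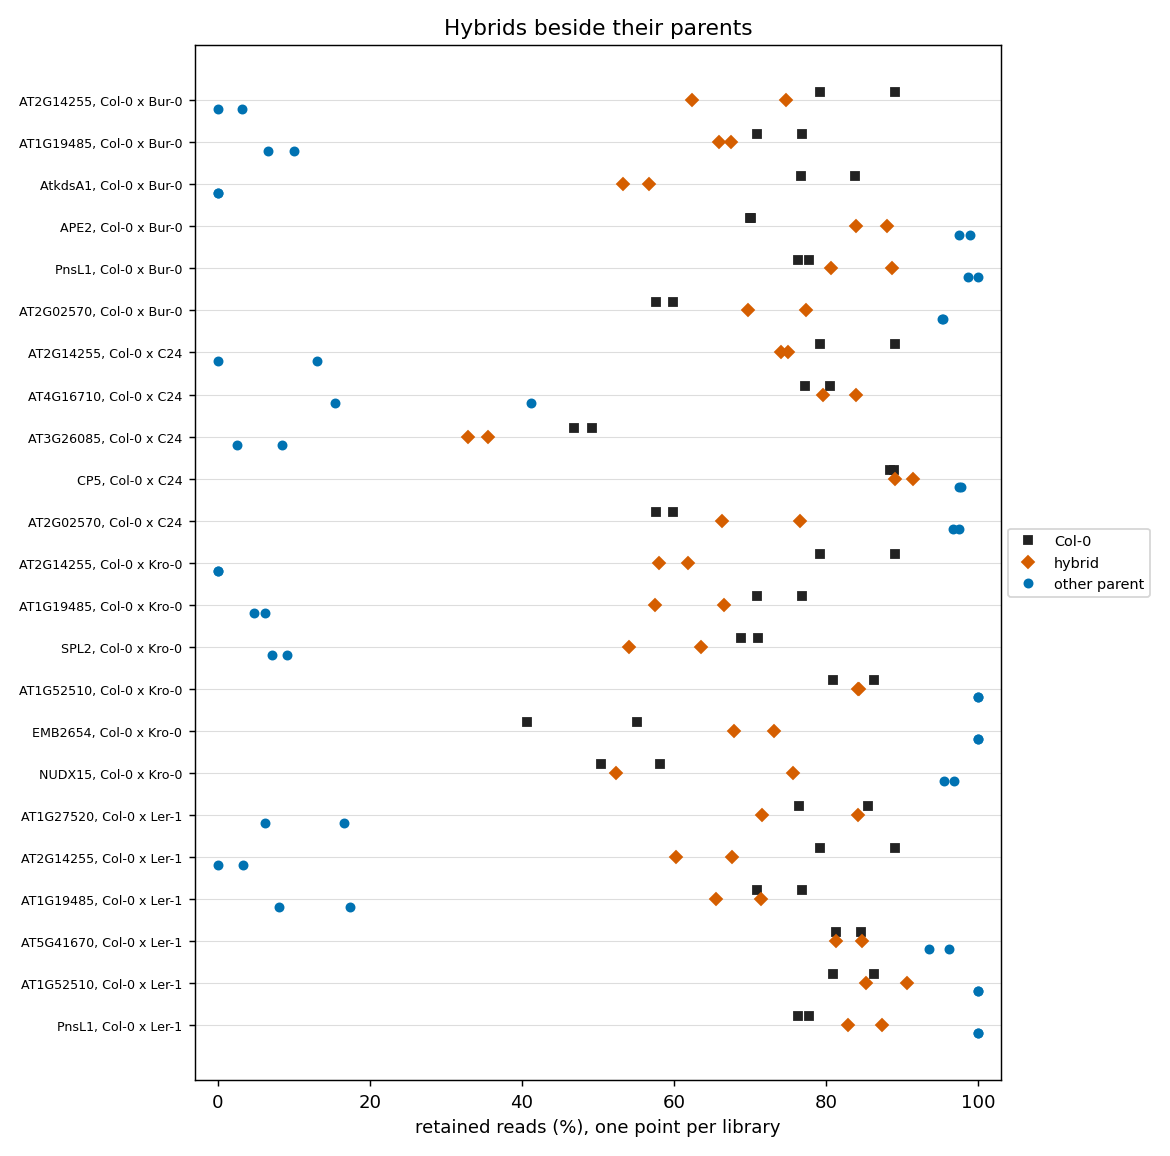
Percent retained (x axis) in both libraries of Col-0 (squares), a hybrid (diamonds) and its other parent (circles) for the introns with the 3 largest called rises and falls per cross (y axis, gene and hybrid). In AT2G14255 the other parents lie at or under 13.0% and the hybrids between 58.1% and 75%, and Col-0 lies at 79.2% and 89.1%.

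The introns farthest from Col-0 in the mean of the other 4 accessions are given as a description only, since Col-0 reads chose them. On the low side, besides AT2G14255, AT1G19485 and SPL2, stood AT5G58980, a neutral ceramidase, at 76% and 90.9% in Col-0 and at most 6.25% in any library of the other accessions. Its hybrids lay between 35.5% and 61.5%. AT2G39280, a Rab GTPase-activating protein gene, stood at 74.2% and 78.3% in Col-0, at most 4.76% in the other accessions and between 15.6% and 55.6% in hybrids. On the high side, besides AT3G07510 and NUDX15, stood VLN4, an actin-bundling villin, at 75% and 60.9% in Col-0. VLN4 had no spliced read in 48, 23, 42 and 50 reads of Bur-0, C24, Kro-0 and Ler-1, which allows up to 6.25%, 13.0%, 7.14% and 6% spliced. AT3G52050, a 5′-3′ exonuclease family gene, stood at 50.9% and 60.8% in Col-0 and at 73.5% or more in the other accessions. AT1G19400 stood at 54.9% and 35.4% in Col-0 and at 60% or more in the others.

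Several genes of the splicing machinery carried such introns. Of 42 splicing factor genes listed, 14 had an intron retention event common to all files and 11 of these held 19 intermediate introns, with a median of 54.6% in Col-0. The list does not hold the CC1-like splicing factor gene AT5G09880 or the RNA-binding protein gene AT2G02570. AT5G09880 was called among accessions and among hybrids (edgeR quasi-likelihood adjusted p = 2.53e-06 and 0.00099). AT2G02570 was called among accessions (edgeR quasi-likelihood adjusted p = 3.36e-07). Of 16 listed introns tested among accessions, 1 was called, beside the 15.4% of all intermediate introns and the background of 13.2% given above. DESeq2 called 2 of them. Among hybrids 0 of 18 were called by edgeR, 1 had an unadjusted p under 0.05 and DESeq2 called 1. Over all events edgeR called 3.47% among hybrids and gave 15.1% an unadjusted p under 0.05. Against the other parents 0 were called by edgeR or DESeq2, and 0 to 2 per cross had an unadjusted p under 0.05. Over all events edgeR called 0.635% to 1.48% per cross and gave 8.96% to 10.5% an unadjusted p under 0.05. The listed intron called among accessions lies in SCL33, an SR-like splicing factor. This 162 nt intron stood at 33.3% and 61.9% in Kro-0, against 73.2% and 85.7% for C24, 80.3% and 87.3% for Ler-1 and 87.7% and 92.6% for Bur-0. Kro-0, on 36 reads, lay below the others without overlap (edgeR quasi-likelihood adjusted p = 0.0186), a call lost without Kro-0 replicate 1 or Bur-0 replicate 2 (edgeR adjusted p up to 0.203). GRP7, an RNA-binding protein of the clock's output that splices its own transcript into an unproductive form, was deeply covered, with 18909 to 78242 reads per group for its 309 nt intron. Retention there ran from 23.2% and 19.5% in C24 and 22.5% and 26.7% in Ler-1 through 34.6% and 34.2% in Kro-0 to 40.6% and 42.6% in Bur-0. The libraries of these groups did not overlap except C24 with Ler-1, yet the test did not call the intron (edgeR quasi-likelihood adjusted p = 0.441). The close relative GRP8 held an unannotated 125 nt stretch at 58.8% to 89.5% over 18 libraries, and reads of the 2 similar genes could be confused.

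U2AF65A and U2AF65B, large subunits of the factor that binds the 3′ splice site, held 2 and 4 of these stretches. The annotated 100 nt intron of U2AF65A stayed between 42.0% and 57.1% over 18 libraries. The 630 nt intron of U2AF65B, which contains 3 shorter stretches of the list, stood at 38.9% and 36.7% in Bur-0 and between 15.2% and 26.9% in the libraries of C24, Kro-0 and Ler-1 (edgeR quasi-likelihood adjusted p = 0.208). The SR proteins RS40 and RS41 kept 199 nt introns at 30% to 55.2% and 40% to 82.1% over 18 libraries. SR34b could not be tested among accessions, since C24 and Kro-0 had 12 to 14 reads per stretch.

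**Figure D5:**
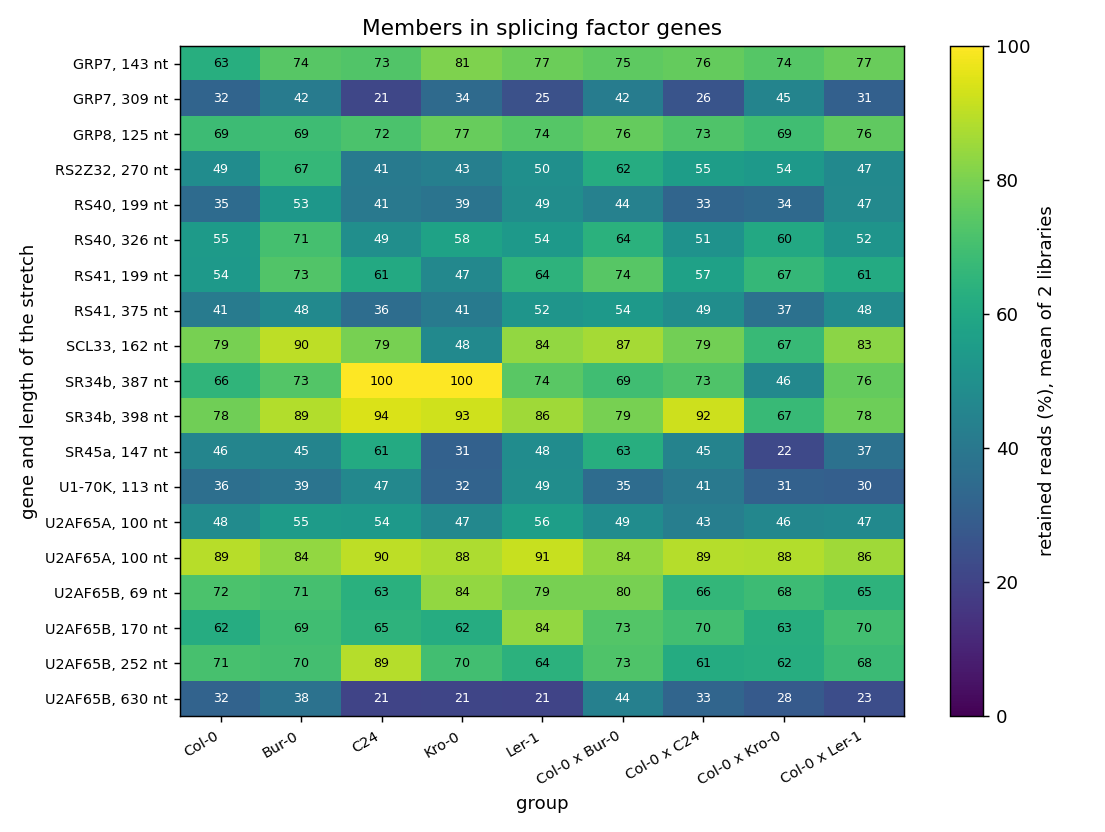
Mean percent retained (colour and printed whole percent, mean of 2 libraries) of the 19 intermediate stretches in the listed splicing factor genes (y axis, gene and length) across the 9 groups (x axis). SCL33 is lowest in Kro-0, and the 100% cells of SR34b in C24 and Kro-0 rest on 12 and 13 reads.

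Of 23 clock genes, 4 had an intron retention event and 3 held 4 intermediate introns. Among accessions 0 of 4 were called by edgeR, 1 had an unadjusted p under 0.05 and DESeq2 called 1. Over all events edgeR called 13.2% and gave 24.7% an unadjusted p under 0.05. Among hybrids 0 of 4 were called by edgeR or DESeq2, 3 had an unadjusted p under 0.05 and limma on the percent called 1. Over all events edgeR called 3.47% and gave 15.1% an unadjusted p under 0.05. With 4 introns, these counts cannot be told from the shares over all events. PRR7, a repressor in the morning loop of the clock, retained its 133 nt intron in 46.3% and 46.1% of Bur-0 reads, 39.1% and 38.5% of C24 reads, 52.2% and 58.0% of Kro-0 reads and 54.1% and 57.1% of Ler-1 reads. C24 lay lowest and Kro-0 and Ler-1 highest, and the difference missed the threshold (edgeR quasi-likelihood adjusted p = 0.127). Among hybrids Col-0 x C24 was also the lowest, at 36.8% and 37.3%, and Col-0 x Kro-0 the highest, at 55.8% and 56.0%. TOC1, an evening repressor of the clock, stayed between 19.2% and 41.1% in all libraries for its 84 nt intron. LNK2, a clock coactivator, stood between 34.2% and 62.9% for its 136 nt 5′ UTR intron.

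Of 28 photosynthesis genes, 14 had a retention event and 4 held 5 intermediate stretches, of which 1 of 5 tested was called among accessions, beside the same 15.4% and 13.2%. That was an unannotated 84 nt stretch of PSAE-1, a photosystem I subunit, with 100% and 100% in Bur-0 and 61.4% to 81.6% in the libraries of the other 3 accessions (edgeR quasi-likelihood adjusted p = 0.002), and with limma on the percent it was not called (adjusted p = 0.0898). LHCA2, an antenna protein of photosystem I, had an unannotated 93 nt stretch at 50% to 80.6% over 18 libraries. Of 15 flowering genes, 5 had an event and 3 held 4 introns. Among accessions 0 of 4 were called by edgeR or DESeq2 and 0 had an unadjusted p under 0.05, beside 13.2% and 24.7% of all events with edgeR. FPA, an RNA-binding protein of the autonomous flowering pathway, stayed between 81.4% and 92.2%, and its intron leaves the reading frame open. MAF2, a MADS-box repressor of flowering whose splicing responds to temperature, stood at 68.3% and 66% in Bur-0 and 40.5% to 67.1% elsewhere for its 86 nt intron. The single stretches of PIF4, a light-signalling transcription factor, and HAB1, a phosphatase that restrains abscisic acid signalling, were not called; HAB1 stood at 64.0% and 53.6% in Ler-1 and 37.9% to 52.0% in the other 3 accessions (edgeR quasi-likelihood adjusted p = 0.0963). None of the 14 immunity genes listed held an intermediate intron, and 1 of them had a retention event.

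At the other extreme, some introns were retained at nearly 1 level everywhere. Of 166 introns with at least 50 reads in every library, the range over the 9 group means had a median of 15.7 points and was under 10 points in 29 and over 50 points in 3. VCS, a scaffold of mRNA decapping, stood between 76.3% and 86.6% in all 18 libraries for a 105 nt intron with a GC content of 48.6%. AT1G76520, an auxin efflux carrier family gene, stood between 77.8% and 87.8%. An unannotated stretch of PTAC16, a plastid chromosome protein, stood between 84.6% and 95.9%. AT1G07820, a histone gene, showed that evenness was not confined to high levels, with 27.6% to 45.2% over 18 libraries. The fifth, also an unannotated stretch and shared by AT1G74875 and AT1G74880, stood between 82.6% and 94.2%.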

How the data were processed

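Polyadenylated RNA was measured in 18 libraries. Per the submitters' processing notes, the tools included HISAT2 and edgeR 3.0.8 and the build was TAIR10; how each read column was counted, and how hybrid reads were placed, is not given in the sources used here. The deposited counts are reads per event for 2 forms, taken as spliced and retained, and the deposited fraction (PSI) equals retained reads over all reads of the event plus 1. Percent retained was computed here as retained over all reads. Events were matched across files by their Col-0 coordinates; introns run from the base after the first to the base before the last base of the interval. Annotation and sequences came from RefSeq TAIR10.1.

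edgeR 4.0.16 in R 4.3.3 was run on the counts of all common events, with a term per library and a form-by-group term. DESeq2 1.42.0 and limma 3.58.1 were alternatives, and the method was tested on simulated data. Depth per library was 3186952 to 6134488 reads. The introns named were the 10 called with the widest gaps among accessions, 4 among hybrids, 3 rises and 3 falls per cross with no overlap of libraries, up to 12 in listed genes, 5 even ones, the 3 shortest and longest annotated ones, and 5 each way from Col-0, 1 per gene. Others in the listed genes were chosen after their values were seen. The introns and gene lists were chosen with earlier results of these data known.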

Additional observations from a re-analysis of the deposited data

Results flagged for a closer look

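At 11 of the introns named above, the difference between a hybrid and its other parent was not the same in the 4 crosses. The difference was tested as an interaction in the same fit, a test added after the data were seen, and 13 of 562 introns tested were called (2.31%), beside 0.938% of all 4903 events. In COAB and AtkdsA1 the edgeR quasi-likelihood adjusted p was 0.000441 for both. COAB rose in the hybrids of Bur-0, Kro-0 and Ler-1 and stood at 58.8% and 58.8% in C24 against 44.8% and 45.3% in its hybrid. The 274 nt intron of AtkdsA1 rose from 0% to 53.3% and 56.8% in the Bur-0 cross, the only cross where it was called. A 91 nt stretch of AtkdsA1 was called in Col-0 x Ler-1 against Ler-1 (edgeR quasi-likelihood adjusted p = 0.00328). That call was lost with limma on the percent and without Ler-1 replicate 2. In AT2G02570 (edgeR adjusted p = 0.00206) the hybrids of Bur-0 and C24 were lower than these parents, whereas Col-0 x Kro-0, at 56.8% and 48.5%, stood above Kro-0 at 30.4% and 32.4%. PnsL1 (edgeR adjusted p = 0.00349) was lower in the hybrids of Bur-0 and Ler-1. EMB2654 (edgeR adjusted p = 0.00673) was lower in Col-0 x Kro-0 than in Kro-0. AT4G16670 (edgeR adjusted p = 0.00694) stood at 24.2% and 19.4% in Ler-1 and 56.9% and 66.2% in its hybrid, and at 86.8% and 81.4% in Bur-0 and 45% and 70.9% in its hybrid. In AT3G07510 (edgeR adjusted p = 0.0143) hybrids lay below Bur-0, C24 and Ler-1 and above Kro-0. SOS4 (edgeR adjusted p = 0.0145) stood at 39.2% and 43.7% in Col-0 x Ler-1 against 2.11% and 3.37% in Ler-1. SPL2 (edgeR adjusted p = 0.0147) rose in the crosses of Bur-0, Kro-0 and Ler-1, AT3G26085 (edgeR adjusted p = 0.0156) in those of C24 and Ler-1, and AT1G27520 (edgeR adjusted p = 0.0299) in that of Ler-1, where its call against Ler-1 was lost without Ler-1 replicate 1 (edgeR adjusted p = 0.051). The cause of these differences was not tested.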

How the results depend on the processing

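The count called among accessions, 88, stayed within 1.5 times under every alternative, and between 61 and 90 when 1 library was left out. The counts among hybrids and within crosses moved more. Leaving out 1 library gave 6 to 13 among hybrids (16 with all), 5 to 12 for Bur-0 (11), 0 to 7 for C24 (7), 4 to 14 for Kro-0 (14) and 8 to 20 for Ler-1 (19); the 0 came without C24 replicate 1, where edgeR gave 59 introns an unadjusted p under 0.05. limma on the logit called 6 among hybrids, 22 for Bur-0 and 17 for C24, limma on the percent 15 for C24, and DESeq2 17 for Bur-0. Fitting only the libraries compared called 96 among accessions, 3 among hybrids, 9 for Bur-0, 3 for C24, 5 for Kro-0 and 19 for Ler-1. The cause of these changes was not tested. With the replicate block the counts were 93 among accessions, 19 among hybrids, and 13, 8, 14 and 20 in the crosses of Bur-0, C24, Kro-0 and Ler-1. Deviations of same-numbered libraries correlated at -0.0893 to 0.144 over events, above 0.1 in 5 of 36 pairs of groups, all within Col-0, Col-0 x Bur-0, Col-0 x Kro-0 and Col-0 x Ler-1, so the numbers were not taken to pair the samples of every comparison. No named call changed direction.

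Group medians moved by a few points. With the deposited PSI they were 62.5% for Col-0, 64.9% for Bur-0, 62.6% for C24, 57.8% for Kro-0, 62.7% for Ler-1, 63.6% for Col-0 x Bur-0, 59.9% in Col-0 x C24, 61.2% in Col-0 x Kro-0 and 61.6% in Col-0 x Ler-1. The next 2 lists give the groups that moved by more than the SD of their library medians. With at least 50 Col-0 reads they were 62.4% in Col-0, 63.3% in C24, 58.1% in Kro-0, 62.0% in Ler-1, 64% in Col-0 x Bur-0, 60.2% in Col-0 x C24 and 62.2% in Col-0 x Kro-0. With both bounds met in each Col-0 library they were 62.9% in Col-0, 63.9% in C24, 58.6% in Kro-0, 63.4% in Ler-1 and 64.3% in Col-0 x Bur-0. Single libraries gave 60.6% to 64.8% in Col-0 x Ler-1, 58.9% to 61.0% in Kro-0, 63.7% to 64.3% in Col-0, 65.1% to 67.0% in Bur-0, 64.9% to 65.2% in C24, 63.6% to 64.4% in Ler-1, 64.9% to 65.3% in Col-0 x Bur-0, 60% to 60.9% in Col-0 x C24 and 62.5% to 63.2% in Col-0 x Kro-0. Depth limits what single introns can show: at 38 reads, 1 read is worth over 2 points.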
